A study of Mus musculus with 2 samples.

Results

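The genes described here encode the subunits of the eukaryotic translation initiation factors in 1H5F9 mouse hybridoma cells. A gene was a member if at least 1 non-control probe on both arrays matched it by RefSeq accession and its symbol began with Eif1 to Eif6; the Eif2ak kinases, the Eif4ebp genes and Eif2s3y were left out. This gave 44 genes with 85 probes, of 17302 genes matched on the array. Hybridoma cells are antibody-secreting fusions of a B lineage cell with a myeloma cell, and 1H5F9 is the only hybridoma line the labels name. BSP-II is a peptide of the bursa of Fabricius, the organ in which birds make B cells, so a bird peptide was added to mouse cells. The BSP-II cells received 5 µg/ml of the peptide for 4 h. The untreated cells received 0 µg/ml for the same 4 h. Both were kept in RPMI 1640 with heat-inactivated fetal bovine serum, and no other agent or allele is given. Total RNA of each culture was labelled with the dye Cy3 and put on 1 single-colour Agilent array, so every difference below compares 1 BSP-II array with 1 untreated array, has no replicate check and carries no p-value.

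Initiation is the step that places a ribosome on the start codon of an mRNA. eIF2 carries the initiator tRNA to the small ribosomal subunit as a complex with GTP, eIF2B reloads eIF2 with GTP afterwards, and phosphorylation of the eIF2 alpha subunit turns eIF2 into an inhibitor of eIF2B. eIF4E binds the mRNA cap, eIF4G bridges it to the ribosome through eIF3, and the eIF4A helicase opens structure ahead of the scanning ribosome. eIF1 and eIF1A keep the start codon choice accurate, eIF5 triggers GTP hydrolysis by eIF2, and eIF5B joins the large subunit. Antibody-secreting cells make protein at a high rate and depend on this machinery.

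All 10 plasma cell and B lineage markers were well above background on both arrays, with signals between 22.3 for Cd79a and 155073 for Jchain on the BSP-II array and between 23.7 and 150869 for the same genes on the untreated array. Of 17 markers of T cells, macrophages, fibroblasts, epithelium and erythroid cells, 15 were on the array and 12 were above background on both; 11 of these had signals of at most 341 on the BSP-II array and 262 on the untreated array. The exception was the epithelial marker Epcam, at 4781 and 4123. Signals are Agilent's background-subtracted processed signals in arbitrary brightness units. The 75th percentile over all spots was 356 on the BSP-II array and 309 on the untreated array, a ratio of 1.15, and each array was divided by its own before differences were taken. A gene with equal relative levels therefore has a raw signal 1.15 times as high on the BSP-II array. All differences are log2 values, BSP-II minus untreated, and a gene's value is that of its brightest probe, averaged over both arrays. Over the 12852 genes measured on both arrays the median difference was −0.03, and over the 6426 brighter ones, which are those not below the median level, the SD was 0.18. Agilent's own error model gave a median error of 0.20 for 1 such difference, and this error is 0.20 for 43 of the members and 0.21 for Eif4e3. It does not include the spread between cultures.

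The initiation factor mRNAs stood at nearly the same relative level on the BSP-II array as on the untreated array. Every one of the 44 genes exceeded background clearly on each array, and 43 of them, all but Eif4e3, were among the brighter genes. Their median log2 difference was −0.03, which was −0.0038 relative to the median of all genes, and 22 of the 44 (50%) lay above that median, against 56.4% of the brighter genes. A log2 difference of 0.32 in size, which is 25% higher or 20% lower on the BSP-II array, served as the limit. Of the 44 members, 1, Eif3m, was at least 25% higher, against 5.64% of all measured genes and 2.55% of the brighter ones. Eif5a2 alone was at least 20% lower, against 14.4% of all measured genes and 4.09% of the brighter ones. The remaining 42 differences lay between −0.25 and 0.26 with an SD of 0.10. Each count is 1 of 44 (2.27%). Among 3181 genes whose level lay between the 5th and 95th percentile of the members' levels, the median was −0.02, with 1.45% at least 25% higher and 3.68% at least 20% lower, so the share of members past the limit was near that of genes at their level in both directions.

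**Figure D1:**
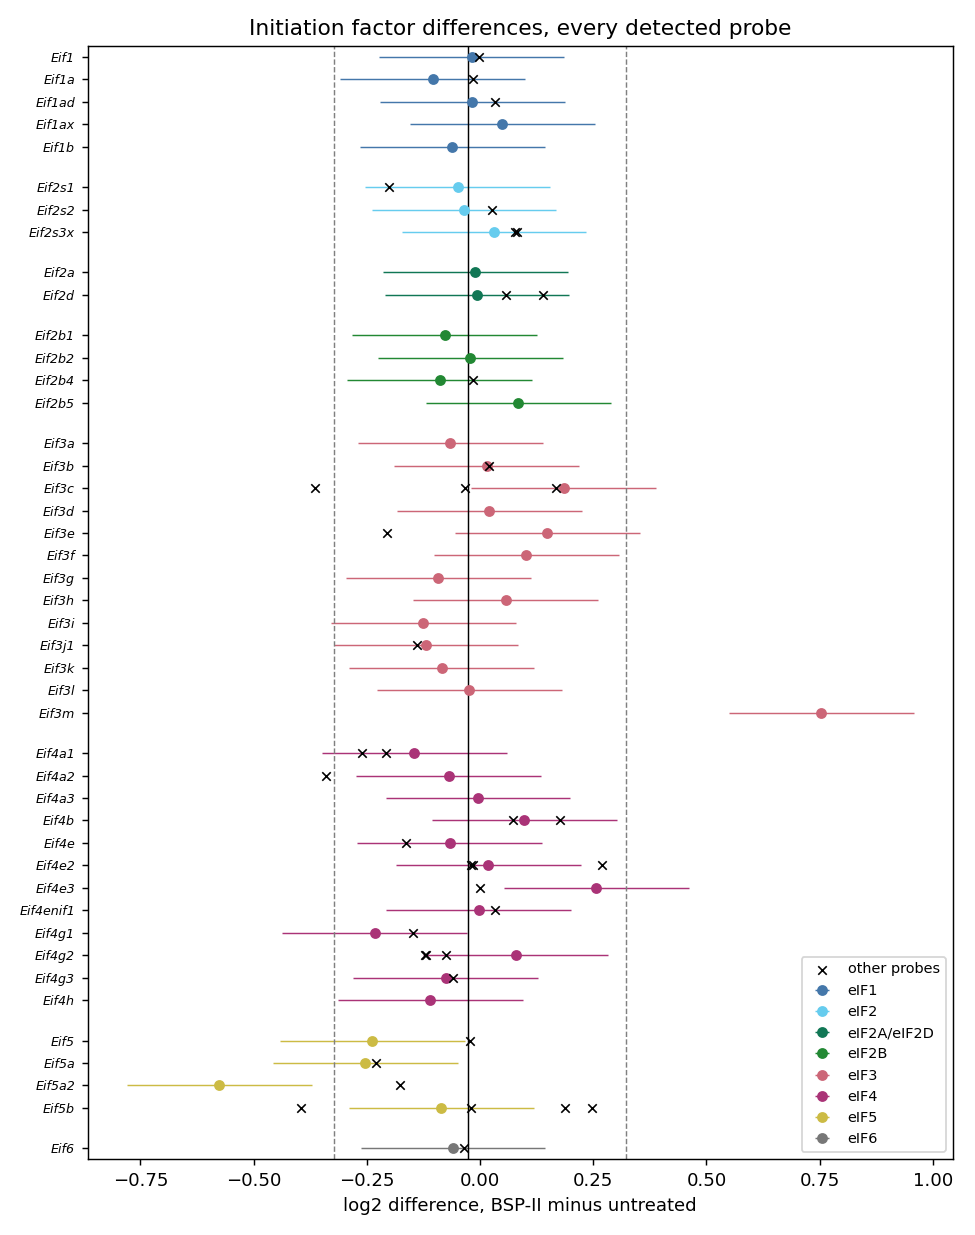
Log2 difference of each initiation factor gene, BSP-II minus untreated, grouped by complex. Bars show Agilent's error of a single-spot difference and the lines mark the all-gene median (solid) and 0.32 in either direction (dashed); crosses are a gene's other probes. Eif3m at 0.75 and Eif5a2 at −0.58 are the only genes whose brightest probe passes 0.32.

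The promoters of 5 members at the ends of this range are shown so that they can be compared base by base. They belong to the 2 highest and 3 lowest members that have a RefSeq promoter entry with 1 annotated start. Each runs 5′ to 3′ on the gene's strand from 250 bases before the annotated start to 30 bases after it, in RefSeq's table for GRCm38.p6. Capitals mark any match, on either strand, to the E-box CACGTG bound by Myc and related factors, the ETS motif CCGGAAGT, the CCAAT box, the TATA box TATAAA, the NRF1 motif GCGCATGCG, the ATF4-CEBP motif TGATGNAAT or the YY1 motif AAGATGGCG. The regions are chr2:105016998-105017277 on the minus strand for Eif3m, chr7:126566337-126566616 on the minus strand for Eif3c, chr3:28781027-28781306 on the plus strand for Eif5a2, chr12:111537851-111538130 on the plus strand for Eif5 and chr16:20672477-20672756 on the plus strand for Eif4g1.
Eif3m: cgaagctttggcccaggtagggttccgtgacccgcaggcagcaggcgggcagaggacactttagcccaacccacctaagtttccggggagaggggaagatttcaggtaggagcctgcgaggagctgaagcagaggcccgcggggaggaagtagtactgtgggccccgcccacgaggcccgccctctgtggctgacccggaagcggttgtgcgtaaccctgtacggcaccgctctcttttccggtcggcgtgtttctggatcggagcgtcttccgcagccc
Eif3c: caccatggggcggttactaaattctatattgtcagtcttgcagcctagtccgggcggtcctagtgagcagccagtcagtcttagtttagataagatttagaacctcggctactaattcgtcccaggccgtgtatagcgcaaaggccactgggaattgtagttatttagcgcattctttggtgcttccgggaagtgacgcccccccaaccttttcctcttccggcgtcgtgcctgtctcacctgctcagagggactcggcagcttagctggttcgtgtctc
Eif5a2: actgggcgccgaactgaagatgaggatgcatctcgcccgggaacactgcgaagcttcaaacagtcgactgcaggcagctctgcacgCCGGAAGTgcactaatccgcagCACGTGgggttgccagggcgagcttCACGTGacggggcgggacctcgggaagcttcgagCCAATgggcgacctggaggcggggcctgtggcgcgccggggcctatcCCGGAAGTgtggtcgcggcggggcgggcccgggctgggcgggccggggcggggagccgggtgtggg
Eif5: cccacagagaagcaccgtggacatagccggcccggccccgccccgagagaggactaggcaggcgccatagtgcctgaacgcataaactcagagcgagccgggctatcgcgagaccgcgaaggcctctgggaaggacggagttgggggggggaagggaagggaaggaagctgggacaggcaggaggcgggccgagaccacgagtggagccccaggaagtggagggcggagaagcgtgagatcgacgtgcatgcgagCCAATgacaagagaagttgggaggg
Eif4g1: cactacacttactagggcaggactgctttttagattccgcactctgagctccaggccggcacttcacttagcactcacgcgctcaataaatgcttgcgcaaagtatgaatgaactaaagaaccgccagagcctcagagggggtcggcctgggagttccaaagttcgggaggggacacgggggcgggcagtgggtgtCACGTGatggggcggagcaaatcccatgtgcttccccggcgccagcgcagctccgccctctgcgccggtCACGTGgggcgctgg
The windows of Eif3m and Eif3c, the 2 that were higher on the BSP-II array by their brightest probes, hold none of the 7 motifs. The other Eif3c probes gave 0.17, −0.03 and −0.36. The second probes of Eif5a2, Eif5 and Eif4g1 gave −0.18, −0.02 and −0.15. The window of Eif5a2 holds 5 matches, of which 2 are E-boxes, 2 are ETS motifs and 1 is a CCAAT box. Eif5 has 1 CCAAT box and Eif4g1 has 2 E-boxes. A match is a run of letters and shows no binding.

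The factors that guard start codon selection were close to the all-gene median. Eif1, whose protein holds the scanning ribosome in its open form, read 118538 on the BSP-II array and 104160 on the untreated array, a log2 difference of −0.02. Eif1b, its paralog, read 7466 and 6758, a difference of −0.06, at a spot with strongly shifted neighbours. Eif1ax and Eif1a both encode eIF1A. Eif1ax read 11586 on the BSP-II array and 9716 on the untreated array, a difference of 0.05. Eif1a read 7197 and 6712, a difference of −0.10, with −0.02 from its second probe. Eif1ad, which encodes an eIF1A-like protein, read 2912 and 2556, a difference of −0.02, but 0.03 from its second probe. The median of these 5 genes was −0.02, with 3 above the all-gene median. No difference among them exceeded Agilent's error.

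eIF2 showed no shift of any subunit beyond that error. Eif2s1, the alpha subunit that the stress kinases phosphorylate, read 8679 on the BSP-II array and 7788 on the untreated array, a log2 difference of −0.05, and its dimmer probe gave −0.20. Eif2s2, the beta subunit, read 11723 and 10423, a difference of −0.04, but 0.03 from its second probe. Eif2s3x, the GTP-binding gamma subunit encoded on the X chromosome, read 13943 and 11839, a difference of 0.03, and its other probes both gave 0.08. The median of the 3 subunits was −0.04. The Y-linked gamma paralog Eif2s3y, which is not a member, read 938 on the BSP-II array and 501 on the untreated array, a difference of 0.70 from 1 probe. Its spot lies 7 rows and 10 columns from that of Eif3m, in an area of the array whose local median is described with Eif3m. Both factors that can deliver initiator tRNA without eIF2 lay just above the all-gene median. Eif2a read 1506 and 1316, a difference of −0.01. Eif2d read 1948 and 1698, a difference of −0.0067, with 0.06 and 0.14 from its other probes.

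The eIF2B subunits, which make up the exchange factor for eIF2, were spread narrowly around the all-gene median. Eif2b1, the alpha subunit, read 6206 on the BSP-II array and 5684 on the untreated array, a log2 difference of −0.08. Eif2b2, the beta subunit, read 3969 and 3495, a difference of −0.02. Alpha, beta and delta form the regulatory core that senses phosphorylated eIF2. Eif2b4, the delta subunit, read 16094 and 14850, a difference of −0.09, with −0.02 from its second probe. Eif2b5, the catalytic epsilon subunit, read 3202 and 2620, the highest of the 4 at 0.08. Their median was −0.05 and 2 of 4 lay above the all-gene median. Eif2b3, the gamma subunit, was not analysed here.

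eIF3 is the largest initiation factor, a scaffold on the small ribosomal subunit built around an octamer of PCI and MPN domain proteins. Of its 13 genes, 8 lay above the all-gene median and the median was 0.01. Eif3m, an octamer subunit, stood out from all others. Its probe read 19243 on the BSP-II array and 9903 on the untreated array, 1.69-fold higher, a log2 difference of 0.75 with an Agilent error of 0.20. The other 12 eIF3 genes lay between −0.12 and 0.19, with a median of −0.0044. Eif3m ranked 70 from the top among 12852 genes and 6 from the top among 6426 brighter ones. Among the 500 genes closest to it in level, itself included as in all such counts, 3 had a difference as large in either direction. It was also the only member at least 1.5-fold higher, against 1.21% of all genes and 0.28% of the brighter ones. No member was 1.5-fold lower, against 4.83% of all genes and 0.98% of the brighter ones. Because Eif3m has 1 probe with 1 spot on the array, no second probe bears on its value.

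The position of that spot was examined for this reason. Within 10 rows and columns of the Eif3m spot, 208 other spots had a median log2 difference of 0.11, above the all-gene median, and 13 of them were as high as Eif3m. Within 3 rows and columns, 25 other spots had a median of 0.15 and ranged from −0.78 to 1.28, and 4 were as high. Over the whole array, by the brightest probe of each gene, 70 of 12852 genes were as high, Eif3m included. The neighbour counts take every detected spot instead, so the shares are not directly comparable. The share over all detected spots was not counted. After the local median was subtracted, Eif3m kept a difference of 0.64. The spot of another member, Eif4g3, lies 3 rows and 1 column away and gave −0.08. Any part of the local shift in the value of Eif3m was not tested.

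**Figure D2:**
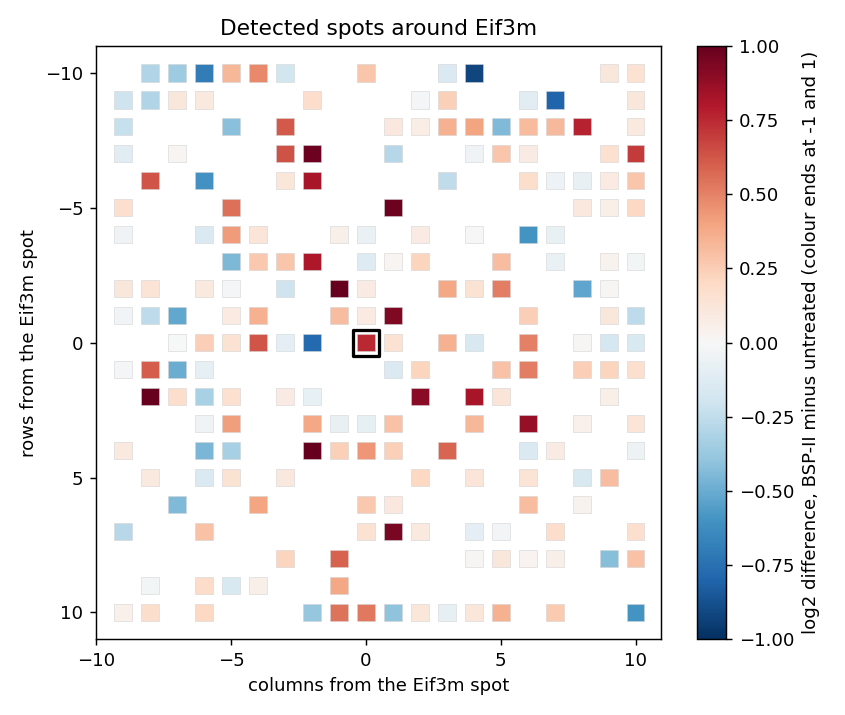
Spots within 10 rows and columns of the Eif3m spot, which lies at the centre, coloured by log2 difference, BSP-II minus untreated. Positions are offsets in spots on the array. The 208 neighbours have a median of 0.11, against 0.75 for Eif3m, and 13 of them are as high.

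The remaining octamer subunits were mixed. Eif3c, which contacts eIF1 and eIF5, read 62689 on the BSP-II array and 47829 on the untreated array, a log2 difference of 0.19. Its other probes gave 0.17, −0.03 and −0.36, so the sign depended on the probe. Eif3e, a PCI subunit also known as Int6, read 19884 and 15565, a difference of 0.15, and its second, dimmer probe gave −0.20. Eif3f, an MPN subunit, read 20079 and 16223, a difference of 0.10. Eif3h, its MPN partner, read 23626 and 19705, a difference of 0.06. The signs of Eif3f and Eif3h rest on 1 probe each. Eif3l, an outer PCI subunit, read 24637 and 21725, a difference of −0.02. Eif3k, which pairs with Eif3l, read 8384 and 7712, a difference of −0.08. Eif3a, the largest subunit, read 8594 and 7804, a difference of −0.07. The 8 octamer genes had a median of 0.08, with 6 above the all-gene median. Relative to that median theirs was 0.11, and 0.05 with the median over the probes of each gene or 0.04 with each probe on its own.

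The subunits outside the octamer had a median of −0.09, with 2 of 5 above the all-gene median. Relative to that median theirs was −0.07, but −0.0085 with normexp background correction and −0.0097 with no background subtraction. Eif3b, the scaffold that holds the peripheral subunits, read 50793 on the BSP-II array and 43613 on the untreated array, a log2 difference of 0.01, with 0.02 from its second probe. Eif3d, which can itself bind the cap of some mRNAs, read 23559 and 20147, a difference of 0.02. Eif3g, an RNA-binding subunit, read 53153 and 49162, a difference of −0.09. Eif3i, a WD40 repeat subunit, read 10432 and 9868, a difference of −0.12. Eif3j1, a loosely attached subunit, read 6054 and 5704, also −0.12, with −0.14 from its second probe. One more Eif3j1 probe was the only one of the 85 member probes not well above background on either array. Each of these 5 differences was smaller than Agilent's error, and the difference between the medians of the 2 modules was not tested.

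**Figure D3:**
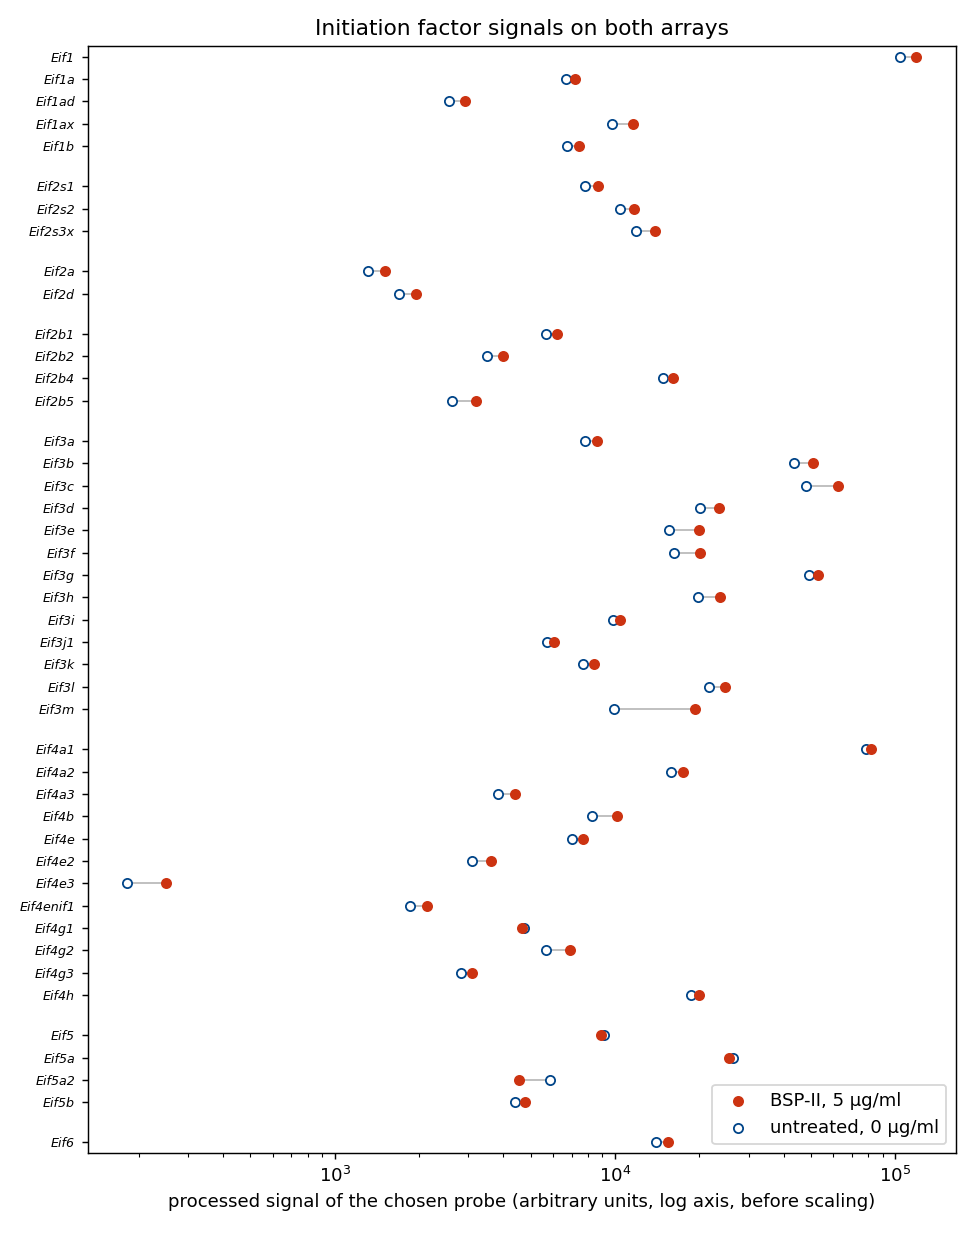
Processed signal of each initiation factor gene on the BSP-II array and the untreated array, on a log axis in arbitrary units, before scaling. The pairs nearly coincide across a range from 182 to 118538, and Eif3m shows the widest gap.

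The cap-binding group eIF4 had 12 members with a median of −0.04, and 6 lay above the all-gene median. Eif4e, the cap-binding protein, read 7703 on the BSP-II array and 7001 on the untreated array, a log2 difference of −0.07. Its dimmer probe gave −0.16. Eif4e2, a cap-binding relative that represses translation, read 3620 and 3101, a difference of 0.02. Its 3 other probes gave 0.27, −0.02 and −0.02. Eif4e3, the dimmest member, read 251 and 182, a difference of 0.26, while its second probe gave no difference to 2 decimals. Eif4enif1, the transporter that takes eIF4E into the nucleus, read 2140 and 1860, a difference of −0.0029, with 0.03 from its second probe. None of these cap-binding genes passed the limit of 0.32 by its brightest probe.

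The eIF4G scaffolds lay on both sides of the median. Eif4g1, the main scaffold, read 4653 on the BSP-II array and 4743 on the untreated array, a log2 difference of −0.23, and its second probe gave −0.15. It was the lowest eIF4 member and, with Eif5, Eif5a and Eif5a2, one of 4 members whose raw signal was lower on the BSP-II array. Of the 500 genes nearest to it in level, 54 had a difference as large. Eif4g3, its paralog, read 3090 and 2826, a difference of −0.08, with −0.06 from its second probe. Eif4g2, a relative that lacks the eIF4E binding site, read 6921 and 5686, a difference of 0.08. Its 3 other probes gave −0.12, −0.08 and −0.12, opposite in sign to the brightest probe, which itself gave −0.11 with no background subtraction and −0.10 with normexp.

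The helicases and their cofactors stayed within the limit of 0.32 by their brightest probes. Eif4a1, the main helicase, read 81641 on the BSP-II array and 78295 on the untreated array, a log2 difference of −0.14, and its other probes gave −0.21 and −0.26. Eif4a2, its close paralog, read 17420 and 15855, a difference of −0.07, and its dimmer probe gave −0.34. All 5 probes of these paralogs were negative, and cross-hybridisation between the pair was not tested. Eif4a3, which belongs to the exon junction complex, read 4399 and 3828, a difference of −0.0044. Eif4b, a cofactor that stimulates eIF4A, read 10204 and 8273, a difference of 0.10, with 0.18 and 0.07 from its other probes. Eif4h, a related cofactor, read 20001 and 18727, a difference of −0.11. The spots of Eif4a3 and Eif4h have strongly shifted neighbours.

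All 4 genes named eIF5, which encode proteins of different function, lay below the all-gene median, with a median of −0.25. Eif5a2 encodes the rarer form of eIF5A, the hypusine-modified factor that helps ribosomes through difficult peptide bonds. It read 4541 on the BSP-II array and 5871 on the untreated array, 1.49-fold lower, a log2 difference of −0.58. Its second probe, at signals of 39.8 and 39.04, gave −0.18 at a spot with shifted neighbours. The 28 spots within 3 rows and columns of the brighter probe had a median of −0.02. Of the 500 genes nearest in level, 8 had a difference as large. Eif5a, the main form, read 25467 on the BSP-II array and 26335 on the untreated array, a difference of −0.25 with shifted neighbours, and its second probe gave −0.23.

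Eif5, the protein that triggers GTP hydrolysis by eIF2, read 8899 on the BSP-II array and 9102 on the untreated array, a log2 difference of −0.24, but its second probe gave −0.02. Eif5b, the GTPase that joins the large subunit, read 4789 and 4409, a difference of −0.09. Its other 4 probes gave 0.25, 0.19, −0.02 and −0.39, the widest probe range of any member at 0.64. Eif6, which keeps free large subunits from joining too early, read 15489 and 14006, a difference of −0.06. Eif5 and Eif5a lay just beyond Agilent's error of 0.20 and Eif5b within it, and 27 of the 500 genes nearest to Eif5a in level differed by as much.

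**Figure D4:**
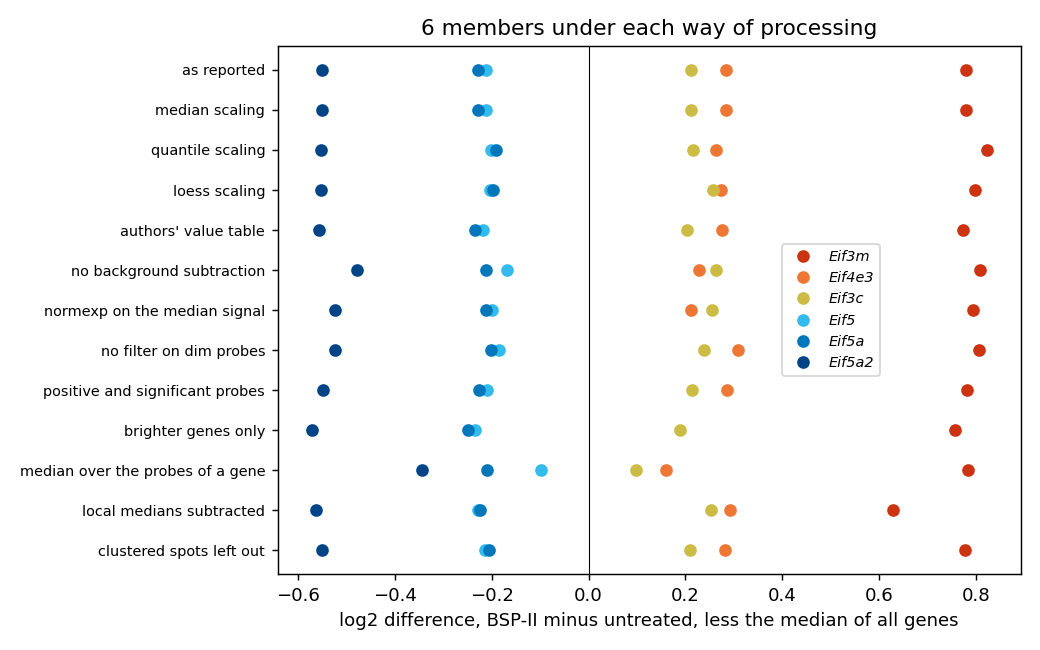
Log2 difference, BSP-II minus untreated, less the median of all genes, of 6 initiation factor genes under each way of processing. Eif3m stays between 0.63 and 0.82 and Eif5a2 between −0.57 and −0.34.

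Repeat probes show how far 1 probe can be trusted. For the 27 members with at least 2 measured probes, the differences of a gene spanned a median of 0.10, against 0.16 for 4029 genes with several probes. Their signs disagreed in 9 of the 27 members, against 1624 of the 4029 genes. Among probes at or above the median level alone, the span was 0.06 for 23 members, against 0.08 for 1350 genes, and the signs disagreed in 9 of the 23 members, against 435 of the 1350 genes. With each of the 84 measured member probes counted on its own, 1 was at least 25% higher, against 6.04% of 17874 gene probes. At least 20% lower were 4, from Eif5a2, Eif5b, Eif3c and Eif4a2, against 13.9% of gene probes.

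Motifs in the promoter windows were counted for the 37 members that have an entry. A gene was counted once if the window of any of its annotated starts held the motif. Genes with more annotated starts thus had more chances of a match, and the number of starts was not matched between members and other genes. Eif1a, Eif3e, Eif3h, Eif3i, Eif4e3, Eif4g2 and Eif6 were not used here. An E-box was found for 10 of the 37 members (27%), against 7.71% of 27025 genes and 10.6% of the 10354 measured genes with an entry. The 10 genes were Eif1b, Eif3a, Eif3f, Eif3k, Eif4a1, Eif4e, Eif4g1, Eif4h, Eif5a and Eif5a2. Their median log2 difference was −0.10, with Eif3f alone above the all-gene median, while the 27 members without one had a median of −0.02 and 17 above. All 1099 measured genes with an E-box had a median of −0.0098, and 53.1% lay above the all-gene median. The ETS motif was found for 7 members (18.9%), against 4.12% of all genes and 7.91% of measured genes. Its 7 genes had a median of −0.02, with 4 above the all-gene median, against −0.04 and 14 above for the members without it. The CCAAT box was found for 13 members (35.1%), against 39.7% of all genes and 42.2% of measured genes. Members with it had a median of −0.07, with 6 above, and members without it −0.03, with 12 above. The TATA box was found for 3 members (8.11%), against 15.1% of all genes and 10.6% of measured genes, with medians of 0.01 for members with it and −0.05 for members without it. The NRF1 motif was also found for 3 members, Eif2s1, Eif3k and Eif4h (8.11%), against 1.87% of all genes and 3.45% of measured genes. The medians were −0.08 for members with it and −0.02 for members without it. With 1 more base, a C at its end, the NRF1 motif matched 1 member (2.70%), against 1.02% of all genes. The ATF4-CEBP motif matched no member, against 1.03% of all genes and 0.608% of measured genes. The YY1 motif also matched no member, against 1.22% of all genes and 2.25% of measured genes. These are descriptions of letters in a fixed window and no test was made of them.

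A pyrimidine tract at the start is the mark of mRNAs whose translation follows mTOR. It was counted loosely, as a C within 5 bases of the annotated start followed by at least 4 pyrimidines, so a match does not show that a gene carries that mark. Such a tract was found for 9 of the 37 members (24.3%), against 21.2% of all genes and 22.8% of measured genes. Those 9 members, Eif1ad, Eif2s3x, Eif2b2, Eif2b5, Eif3b, Eif3f, Eif3l, Eif4enif1 and Eif4g1, had a median log2 difference of −0.0029, with 8 above the all-gene median. The 28 without it had a median of −0.07, with 10 above. Over all 2362 measured genes with such a tract the median was −0.02 and 50.8% lay above.

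Other genes of the pathway were taken from fixed lists. Of the 9 genes of the eIF2 kinase and phosphatase arm, 8 lay above the all-gene median by their brightest probes, with a list median of 0.09. Eif2ak4, at that 0.09, gave −0.26 from its second probe. Eif2ak1 gave 0.03, but −0.10 from its second probe. Gcn1 gave 0.06, and −0.32 and 0.16 from its other probes. The other genes of the list have 1 measured probe each. Eif2ak2, the kinase activated by double-stranded RNA, read 86.4 on the BSP-II array and 55.3 on the untreated array, a log2 difference of 0.44. Eif2ak3, the kinase of the endoplasmic reticulum stress response, read 1637 and 1872, a difference of −0.40. These were the only members of that list past 0.32 in size, 1 of 9 in each direction, against 5.64% of all genes higher and 14.4% lower. Ppp1r15a, the inducible phosphatase subunit that reverses the phosphorylation, read 470 and 356, a difference of 0.19. Ppp1r15b, its constitutive counterpart, read 760 and 596, a difference of 0.15.

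In the list of cap-binding control genes, 9 of 11 were measured, with a median of −0.05 and 4 above the all-gene median. Its 3 inhibitors of eIF4E had different values. Eif4ebp1 read 17152 on the BSP-II array and 11542 on the untreated array, a log2 difference of 0.37. Eif4ebp2 read 4615 and 5678, a difference of −0.50. Eif4ebp3 read 1112 and 998, a difference of −0.05, with −0.09 from its second probe. The kinase Mtor, which inactivates these inhibitors, read 214 and 150, a difference of 0.31. Rps6kb1, another mTOR target, read 815 and 801, a difference of −0.18, while its other probes gave −0.02 and 0.14. By their brightest probes, only Eif4ebp1 and Eif4ebp2 of this list passed 0.32 in size. That is 1 of 9 in each direction, against the 5.64% and 14.4% of all genes. Rptor gave −0.07, but −0.42 from its second probe.

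The partners of initiation at the mRNA ends and in scanning had a median of −0.07, with 4 of 12 above the all-gene median, none at least 25% higher, against 5.64% of all genes, and 3 at least 20% lower, against 14.4%. Ddx3x, a helicase that helps on structured leaders, read 2488 on the BSP-II array and 2723 on the untreated array, a log2 difference of −0.34, with −0.70 from its second probe. Ncbp2, the nuclear cap-binding protein, read 493 and 559, a difference of −0.39, but 0.15 from its second probe. Dhx29, another scanning helicase, read 17.4 and 21.2, near the background, a difference of −0.49. Pabpc1, the poly(A)-binding protein, read 145878 and 144995, a difference of −0.20. Abce1 gave −0.09, but −0.33 from its second probe.

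The elongation factors had a median of 0.01, with 5 of 9 above the all-gene median. Of the 9, 1 was at least 25% higher, against 5.64% of all genes and 2.55% of the brighter ones. None lay past 0.32 on the lower side, against 14.4% of all genes and 4.09% of the brighter ones. Eef2k, the kinase that inhibits eEF2, read 248 on the BSP-II array and 156 on the untreated array, a log2 difference of 0.46. Eef1e1 read 7645 and 7607, a difference of −0.20. Eef1a1, which delivers aminoacyl-tRNA, gave −0.10, and 0.14 from its second probe. Eef1d, an exchange factor subunit, gave −0.10, and −0.84 and −0.53 from its other probes. The termination and rescue genes had a median of 0.07, with 4 of 5 above the all-gene median and 2 at least 25% higher, against 5.64% of all genes and 2.55% of the brighter ones. Hbs1l, a ribosome rescue GTPase, read 4411 and 1867, a difference of 1.04, but its second probe gave 0.18. Gspt2, a release factor, read 56.6 and 31.4, a difference of 0.64. Its paralog Gspt1 gave −0.13, and 0.06 from its second probe. Pelo, the partner of Hbs1l, gave 0.07, and −0.16 from its second probe.

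Set beside the other large gene groups of protein synthesis, the initiation factors lay between them. Above the all-gene median were 22 of 44 initiation factor genes (50%), 19 of 82 cytosolic ribosomal protein genes (23.2%) and 27 of 36 aminoacyl-tRNA synthetase genes (75%). The medians were −0.03 for the initiation factors, −0.08 for the ribosomal proteins and 0.05 for the synthetases. The ribosomal protein group had 1 gene (1.22%) at least 25% higher, Rpl30 at 0.95, against 5.64% of all genes and 2.55% of the brighter ones. It had 1 (1.22%) at least 20% lower, Rps24 at −0.51, against 14.4% and 4.09%. The synthetases had 1 (2.78%) at least 20% lower, Lars2 at −0.77 from a spot with shifted neighbours, and none at least 25% higher. Cars, at 0.32, lay just under the limit, with 0.31 and 0.35 from its other probes. Eprs gave 0.03, and its other probes ran from −0.42 to 0.10. The groups were not matched for signal level, and many ribosomal protein genes read brighter than any member, such as Rplp0 at 267972 on the BSP-II array. Loess scaling, which fits a trend with level, moved the brightest member, Eif1, from −0.02 to 0.07. It moved the dimmer Eif1ad only from −0.02 to −0.0033. Neither the difference between the groups nor the part of signal level in it was tested.

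**Figure D5:**
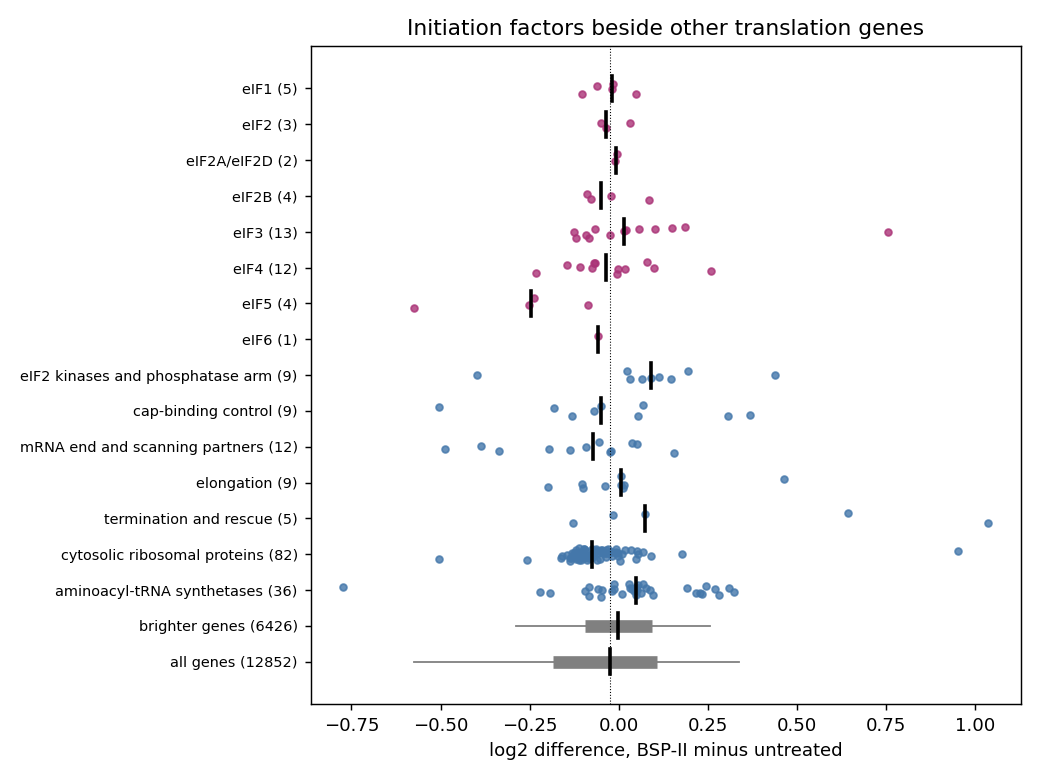
Log2 differences, BSP-II minus untreated, of the measured genes of each gene list, with 1 point per gene and a bar at the list median; grey boxes span the middle of the distribution over brighter and all genes (25th to 75th percentile, lines to the 5th and 95th). The initiation factor groups centre near the all-gene median, except the 4 eIF5 genes, which all lie below it with a median of −0.25. Eif3m and Eif5a2 are the 2 member points farthest from the all-gene median.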

How the data were processed

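Total RNA of 1 BSP-II and 1 untreated culture was hybridised to single-colour arrays on 1 slide. Per the submitters' processing notes, the scans were read with Agilent Feature Extraction 10.5.1.1. The intensity columns deposited by the authors are, per the file headers, the median pixel brightness of each spot and its local background, and a background-subtracted processed signal with its error. The deposited flags, of unit other, mark outlier, saturated, positive and well-above-background spots. The authors' deposited value table, on a log2 scale, holds 23296 probes; for 99.8% of them on either array its values are those of the processed signal in log2, shifted by a constant for the array (−4.94 for BSP-II, −4.85 for untreated; medians 2.99 and 2.88) within 0.001, and how that centring was set is unknown.

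Probe accessions were matched to RefSeq symbols of GRCm38.p6, for 25091 of 41163 probes (61.0%); an accession matching several genes was dropped. Control spots and 189 outlier spots were left out, none was saturated, and spots of 1 probe were averaged. From the log2 processed signals the 75th percentile of the same array was subtracted, and each gene took its brightest probe on average. Genes counted as measured were well above background on both arrays, 12852 of 17302. The array number limits the precision; the arrays had 27272 (BSP-II) and 24674 (untreated) probes well above background. A spot with shifted neighbours was one with at least 2 other spots, no more than 3 rows and columns away, that differed 2-fold or more the same way.

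Every member is named with its values, and up to 4 genes with the largest difference from each other list, with a few others of a list beside them. The members, lists and motifs were chosen with earlier results of these data known, and the NRF1 and YY1 motifs were shortened by 1 base after a first count of matches. The steps were tested on simulated data. Python 3.11.15 with numpy 2.4.6, pandas 2.3.3 and matplotlib 3.10.9, and R 4.3.3 with limma 3.58.1 were used.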

Additional observations from a re-analysis of the deposited data

How the results depend on the processing

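Scaling to the array median, quantile or loess scaling, the authors' value table, other background corrections, other filters and probe rules, and corrections for position left most results as reported: 101 medians and counts under alternatives stayed close to the reported value (counts within 1.5 times, medians within the 0.07 that separates repeat spots) and 5 did not. That 0.07 is larger in size than each median so compared, which ran from −0.05 to 0.04 relative to all genes. Staying close is thus a weak check. The medians compared were those of all members, eIF2, eIF2B, eIF3, eIF4, and eIF1, eIF5 and eIF6 together. All 524 single-gene values moved by less than Agilent's error of 0.20. Settings that only change the filter on dim probes or keep brighter genes cannot move a single-gene value. Median scaling cannot move a median relative to all genes. Still, 47 of the 524 values, from 18 genes, lay on the other side of the all-gene median. Eif4g2 was among them, at −0.11 with no background subtraction and −0.10 with normexp. Members at least 25% higher numbered 2 under median scaling and 2 in the authors' value table, where Eif4e3 joined Eif3m. That is because median scaling adds 0.12 to every difference and moves the all-gene median to 0.10. The share of all genes past the limit was not counted under these settings. Members at least 20% lower numbered 4 with each probe on its own, and 0 at 1.5-fold. Relative to the all-gene median, the eIF2B median was 0.054 after local medians were subtracted, against −0.02 as reported. Over 13 alternatives the member median, relative to all genes, ran from −0.03 to 0.04, eIF2 from −0.03 to 0.06, eIF3 from 0.0023 to 0.07, eIF4 from −0.06 to 0.02 and eIF1, eIF5 and eIF6 together from −0.09 to −0.0090. The eIF3 octamer ran from 0.04 to 0.16, and the eIF3 subunits outside it from −0.09 to −0.0085. The 4 eIF5 genes all stayed below the all-gene median except 1 with the median over the probes of each gene, and with each probe on its own 4 of 11 eIF5 probes lay above it. The causes of the moves in probe-level and local results were not tested. No paired analysis was possible because each group has 1 array. The planned background correction on the mean signal was not run, since the files used hold a median signal. Eif4e3 has no value among the brighter genes alone, nor Eif1b, Eif4a3 and Eif4h without spots with shifted neighbours.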
